A study of Mus musculus with 36 samples.

Results

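White fat taken from the epididymal depot of male mice was compared between mice that had spent 12 weeks on restricted feeding and mice killed when that period began. The 24 arrays of these 2 groups, 12 a group, were taken from the 36 arrays of the study by their labels, with 1 mouse on each array. All mice were adult male C57BL/6J mice and had first eaten a purified high-fat diet, with 30% of its energy as fat, ad libitum for 3 weeks. The t0 mice were killed at the end of those 3 weeks. The HF-DR mice then received the same diet for 12 weeks at 70 energy percent, with extra vitamins and minerals added in proportion, so the label of restriction refers to energy and not to micronutrients. The remaining 12 mice, HF-AL, went on eating ad libitum for those 12 weeks and were as old as HF-DR mice at death. Their values are given below beside the comparison. Their arrays also enter the test's estimate of the spread and the choice of genes and probes. HF-DR and t0 mice differed by 12 weeks of age as well as by restriction, and these cannot be told apart in the comparison of HF-DR with t0. The hour of killing and the time since the last meal are not in the labels.

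White fat stores energy as triglyceride in adipocytes, which take up fatty acids released from lipoproteins by lipoprotein lipase and also make fatty acids from glucose, a route called de novo lipogenesis. Citrate leaves the mitochondria, is split to acetyl-CoA by ATP citrate lyase, and is built into fatty acids by acetyl-CoA carboxylase and fatty acid synthase, with NADPH from the pentose phosphate pathway and malic enzyme. Refeeding and insulin raise this route, and fasting raises lipolysis, the release of stored fat. Between the adipocytes lie fibroblasts and preadipocytes, which lay down collagen, and macrophages, lymphocytes, mast cells, blood vessels and a mesothelial cover.

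Each value is a log2 ratio of the mouse's RNA, labelled red (Cy5), to a pool of the RNA of all mice, labelled green (Cy3), on the same array. A ratio of 0 is the level of the pool, and a difference of 1 between groups is a doubling. Because the pool contains all groups, a ratio shows how mice differ for 1 gene and not which of 2 genes is the more abundant. Differences are given with their standard error (SE), and a gene is said to have risen, fallen or changed in HF-DR relative to t0 where the limma test gave an adjusted p under 0.05 (two-sided, Benjamini-Hochberg over 16497 genes). The labels name individual animals, so the p-values measure the spread between mice. In bulk tissue, fewer cells of a type and less RNA per cell cannot be told apart, which holds for every marker gene below.

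The share of probes with Cy5 well above background ran from 44.6% on HF-DR 5 to 86.3% on t0 2. The 5 adipocyte markers chosen for the check of the tissue, Adipoq, Plin1, Fabp4, Lipe and Cidec, were well above background on all 24 arrays, and all of them but Fabp4 fell. Markers of macrophages, fibroblasts, mast cells, mesothelium and red blood cells differed between the groups too, as given below, and the part of these shifts in other results was not tested. The arrays of HF-DR 7, 8 and 9 carried transcripts of the seminal vesicle, a gland of the male tract that lies near this depot. The log2 ratio of Svs4, a secretory protein of that gland, was 6.29 on HF-DR 8 and 6.00 on HF-DR 9. On HF-DR 7 it was 0.81, against -5.94 to -3.91 on the other 9 HF-DR arrays and -6.08 to -2.91 on the t0 arrays. The pool holds RNA of these mice too, and a ratio below 0 is a level below that of the pool. On 6 slides an array of each group lay side by side (HF-DR 1 to 6 with t0 1 to 6). HF-DR 7 to 12 shared no slide with any other analysed array. A fit with the slide as a block therefore rests on HF-DR 1 to 6 and leaves out HF-DR 7, 8 and 9 too. Values within slides are given for some results, not for every result that differs from the whole.

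**Figure D1:**
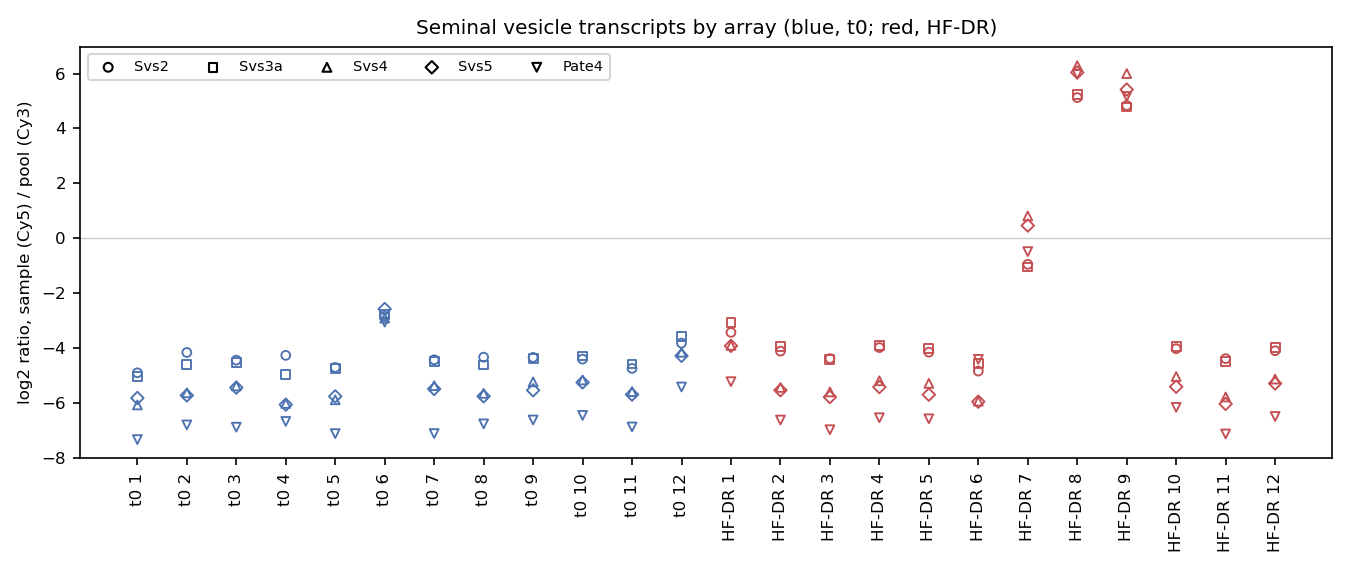
Log2 ratio of sample to pool (vertical axis) of 5 genes of the seminal vesicle on each of the 12 t0 arrays (blue) and 12 HF-DR arrays (red). HF-DR 8 and 9 stand above 4 for all 5 genes, HF-DR 7 lies between -2 and 1, and the other 21 arrays lie below -2.

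Between HF-DR and t0, 10191 of 16497 genes changed (61.8%), 4745 of them higher (28.8%) and 5446 lower (33%) in HF-DR. Every count of risen or fallen genes in a list below is to be read beside these shares. Most of these differences were small, with a median size of 0.39 on the log2 scale among changed genes. At 2-fold or more, 500 genes were higher (3.03%) and 424 lower (2.57%), and at 4-fold or more 99 were higher (0.600%) and 47 lower (0.285%). The arrays of both groups did not overlap for 1238 genes that were higher (7.50%) and 1505 that were lower (9.12%) in HF-DR. Without HF-DR 7, 8 and 9, 10657 genes changed (64.6%). Of these, 9501 were also called with all arrays, none of them in the opposite direction, while 690 calls were lost and 1156 gained. In the same fit, 113 genes changed between HF-AL and t0 (0.685%), 75 higher (0.455%) and 38 lower (0.230%) in HF-AL. The mean of testis and sperm markers had a median of -0.98 over the HF-AL arrays and reached 2.46. Its part in these counts was not tested. HF-AL and HF-DR are both set against the same t0 arrays, so their differences are given side by side and are not independent.

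Fatty acid synthesis rose and held the gene with the highest difference, Elovl6. Of 25 measured genes of the route (those that passed the signal filter), 23 rose (all genes, 28.8%), and the median difference was 1.90, against -0.01 over all genes tested. Elovl6, the elongase that lengthens palmitate, had ratios of -3.98 to -2.59 in t0 mice (median -3.10) and of 1.25 to 2.68 in HF-DR mice (median 2.13). No HF-DR mouse came near a t0 mouse, and the difference of 5.34 (SE 0.15, adjusted p = 2.5e-26) is a 40.5-fold higher level. The probe behind it lies at chr3:129630352-129630411 in the mm8 build of the file headers. HF-AL mice, at -3.55 to -2.59, lay in the range of t0.

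The enzymes that supply and join carbon rose together with it. Acly, ATP citrate lyase, went from a t0 range of -2.49 to -0.88 (median -1.52) to an HF-DR range of 1.25 to 2.20 (median 1.98). This difference of 3.49 (SE 0.17, adjusted p = 5.2e-19) left the groups apart, and a second, dimmer probe of the gene gave 1.64. Fasn, fatty acid synthase, ran from -1.65 to 0.18 in t0 (median -0.43) and from 0.99 to 2.69 in HF-DR (median 2.34), a difference of 2.88 (SE 0.20, adjusted p = 8.3e-15). Its spot was saturated on 6 HF-DR arrays, where the true ratio may be higher. Slc25a1, the carrier that exports citrate from mitochondria, rose by 2.73 (SE 0.13), Me1, malic enzyme, by 2.91, Acaca, acetyl-CoA carboxylase, by 2.66 and its mitochondrial partner Acacb by 2.43. Thrsp and Mid1ip1, a pair of related proteins that act on lipogenesis, rose by 2.45 and 2.69.

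Elongases and desaturases differed among themselves. Elovl3, an elongase of very long chain fatty acids that is abundant in brown fat, ran from -2.80 to -2.19 in t0 (median -2.60) and from 1.06 to 2.76 in HF-DR (median 2.01). Its difference was 4.54 (SE 0.13, adjusted p = 4.8e-26), 23.2-fold, with no overlap. Elovl5 rose by 1.89, while Elovl1 differed by 0.05 (adjusted p = 0.45). The desaturases Scd1 and Scd2 rose by 1.12 and 2.17, and Fads1 and Fads2 by 0.81 and 1.11. Of the transcription factors of the route, Mlxipl (ChREBP) rose by 1.90 and Srebf1 by 0.84. Oxsm, a synthase of the separate mitochondrial route, was the 1 member that fell, by 0.22 (adjusted p = 0.0098). Its call was lost without HF-DR 7, 8 and 9 (adjusted p = 0.087), and its dimmer probe gave a rise of 0.27.

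All 7 measured genes of the pentose phosphate pathway, which makes NADPH and ribose, rose (median 1.08). Tkt, transketolase, ran from -1.26 to -0.25 in t0 (median -0.80) and from 0.53 to 2.38 in HF-DR (median 1.93), a difference of 2.56 (SE 0.17, adjusted p = 1.1e-15), although a dimmer probe gave 0.71. Rpia rose by 1.86 and Taldo1 by 1.08. The t0 and HF-DR arrays did not overlap for 5 of the 7 genes (7.50% of all genes were higher without overlap).

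Genes of cholesterol synthesis and uptake rose as well. Of 25 measured genes of synthesis and uptake, 23 rose, none fell, and 19 had no overlap between groups (7.50% of all genes were higher without overlap). The median difference was 1.67. Cyp51, which removes the methyl group of lanosterol, ran from -1.71 to -0.78 in t0 (median -1.31) and from 1.12 to 2.73 in HF-DR (median 2.15). It rose by 3.37 (SE 0.14, adjusted p = 2.1e-21), 10.3-fold, and its 3 probes gave 2.69 to 3.63. Mvd, mevalonate decarboxylase, rose by 3.07 (SE 0.13) and Sqle, squalene epoxidase, by 2.99 (SE 0.13), both with the HF-DR mice wholly above the t0 mice. Insig1, which holds the factor SREBP in the endoplasmic reticulum when sterols are plentiful, rose by 3.23. Hmgcs1, a synthase of an early step, differed by 0.28 (adjusted p = 0.071) and passed without HF-DR 7, 8 and 9, where 24 of the 25 rose. Srebf2, the factor that drives the pathway, had a difference of 0.00 (adjusted p = 0.99), but its 3 probes ran up to 0.95. The median of the 25 genes for HF-AL minus t0 was 0.08.

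The sequence before the transcription start is shown for the 3 members with the largest differences among those with an entry in the RefSeq promoter table (GRCm38.p6), and for Hmgcs1 as the 1 member that holds the sterol element searched. The choice of these genes was made with their values in view. The 250 bases before the start are given in the direction of the gene, at chr5:4104698-4104947 (minus strand) for Cyp51, chr5:28071162-28071411 (plus) for Insig1, chr8:122443423-122443672 (minus) for Mvd and chr13:119690101-119690350 (plus) for Hmgcs1. Capitals mark matches to CCAAT, the box read by the factor NF-Y, to TCACNCCAC, a sterol regulatory element, and to CACGTG, an E-box, each on either strand.
Cyp51: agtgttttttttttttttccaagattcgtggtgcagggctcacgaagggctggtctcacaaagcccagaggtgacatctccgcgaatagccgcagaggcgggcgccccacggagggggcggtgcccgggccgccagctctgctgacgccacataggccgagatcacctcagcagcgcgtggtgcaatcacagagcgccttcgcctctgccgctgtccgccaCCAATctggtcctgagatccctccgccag
Insig1: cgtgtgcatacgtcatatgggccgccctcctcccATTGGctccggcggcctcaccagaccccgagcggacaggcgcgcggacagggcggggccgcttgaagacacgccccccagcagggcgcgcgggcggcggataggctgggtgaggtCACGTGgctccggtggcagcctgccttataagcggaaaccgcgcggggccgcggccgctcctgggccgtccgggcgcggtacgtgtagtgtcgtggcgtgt
Mvd: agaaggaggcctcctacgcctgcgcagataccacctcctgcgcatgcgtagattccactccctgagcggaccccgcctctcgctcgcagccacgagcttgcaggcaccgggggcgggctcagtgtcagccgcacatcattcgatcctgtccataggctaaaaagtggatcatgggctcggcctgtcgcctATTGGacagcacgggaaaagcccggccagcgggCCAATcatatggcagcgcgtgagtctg
Hmgcs1: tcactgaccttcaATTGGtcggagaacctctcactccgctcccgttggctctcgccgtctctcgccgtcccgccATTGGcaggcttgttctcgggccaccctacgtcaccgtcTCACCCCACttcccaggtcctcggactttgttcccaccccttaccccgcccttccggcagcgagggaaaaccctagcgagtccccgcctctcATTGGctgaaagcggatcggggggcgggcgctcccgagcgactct
CCAAT was found in 16 of the 17 measured cholesterol genes with an entry (94.1%) and in 13 of 20 fatty acid synthesis genes (65.0%), against 37.5% of the 27025 genes of the table. It was also found in 10 of 14 clock genes (71.4%) and in 7 of 14 collagen genes. TCACNCCAC was found in 1 of the 17 (5.88%), 1 of the 20 (5.00%) and 1.22% of all. CACGTG was found in 4 of the 17 (23.5%), 4 of the 20, 5 of the 14 clock genes (35.7%), none of the 14 collagen genes and 6.86% of all. The list shares cover measured genes, whereas the 27025 genes of the table include genes not measured here. No share over the tested genes alone was taken. Such matches describe the letters and show no binding.

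**Figure D2:**
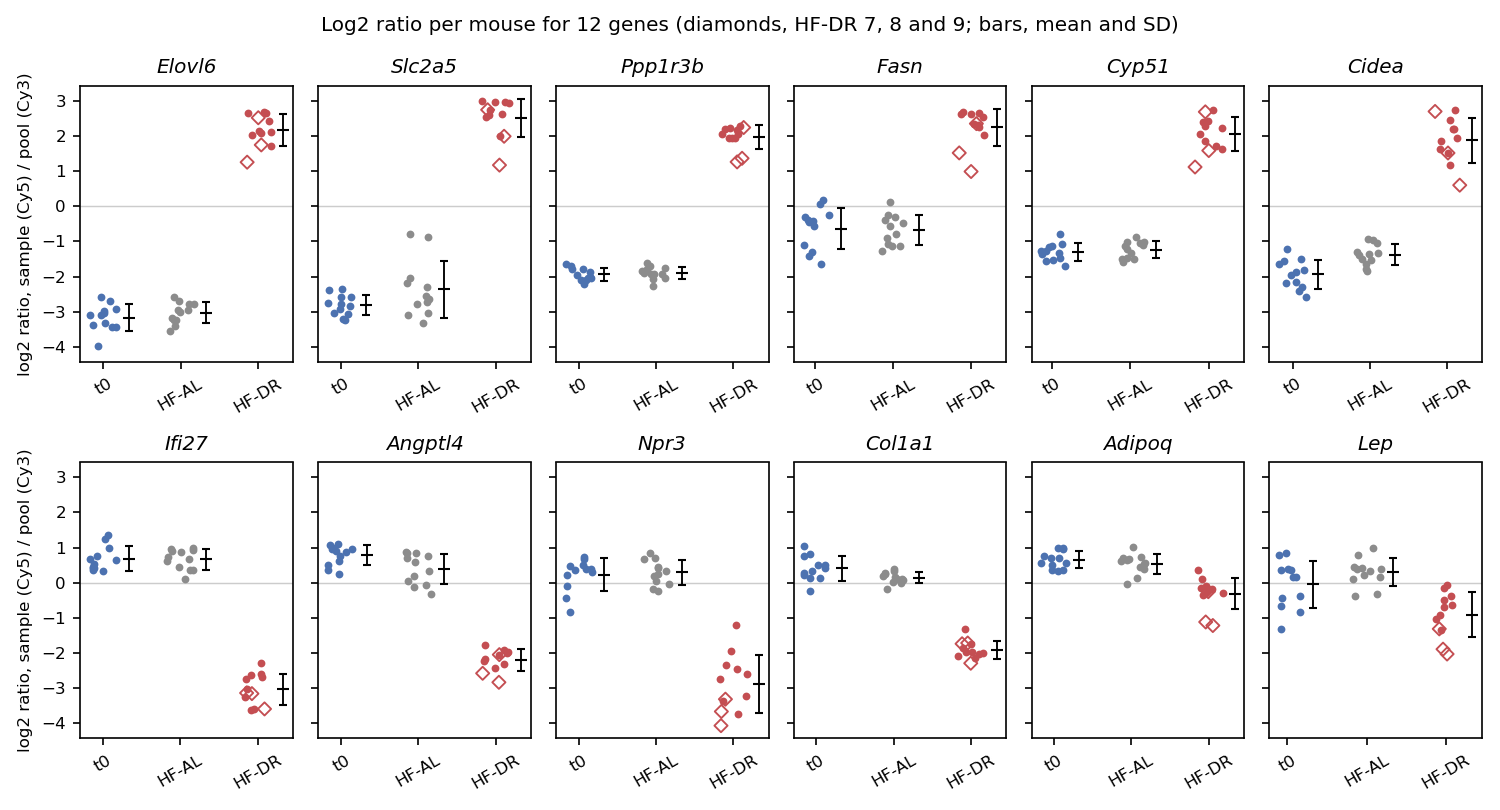
Log2 ratio of sample to pool (vertical axis) for 12 genes in each t0, HF-AL and HF-DR mouse (points, 12 mice a group), with the mean and SD beside them; open diamonds are HF-DR 7, 8 and 9. Elovl6, Slc2a5, Ppp1r3b, Fasn, Cyp51 and Cidea stand higher in every HF-DR mouse than in any t0 mouse, Ifi27, Angptl4, Npr3 and Col1a1 lower, and the groups overlap for Adipoq and Lep.

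Genes of sugar uptake and glycolysis were mostly higher, and the glucose transporters given here differed among themselves. Slc2a5, the fructose transporter, had ratios of -3.23 to -2.37 in t0 (median -2.81) and of 1.17 to 2.99 in HF-DR (median 2.68). This was a 40.4-fold difference (5.34, SE 0.23, adjusted p = 1.2e-20) with no overlap, and HF-AL mice spread from -3.31 to -0.78. Slc2a4, the insulin-regulated glucose transporter, rose by 1.17, and Slc2a1, the basal transporter, differed by 0.09 (adjusted p = 0.79). Of 23 genes of glucose uptake and glycolysis, 17 rose and 3 fell, with a median of 0.66. Gapdh rose by 1.58 (SE 0.09), from -0.97 to -0.48 in t0 (median -0.77) to 0.09 to 1.20 in HF-DR (median 0.88), so it is no constant reference here. Pgk1 rose by 1.20 and Pkm, pyruvate kinase, by 1.40. Pfkfb3, which makes an activator of phosphofructokinase, went the other way. It ran from -0.58 to 0.86 in t0 (median 0.16) and from -2.54 to -1.44 in HF-DR (median -1.85). It fell by 2.07 (SE 0.15, adjusted p = 3.4e-14), and the smallest difference among its 3 probes was -1.08.

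Glycogen genes had 10 of 14 measured members higher and 3 lower, with a median of 0.77. Ppp1r3b, the subunit that brings a phosphatase to glycogen and so activates its synthesis, ran from -2.20 to -1.64 in t0 (median -1.99) and from 1.26 to 2.28 in HF-DR (median 2.06). The difference was 3.91 (SE 0.10, adjusted p = 8.7e-28), 15.1-fold, and differed little between the 6 slides with both groups (3.71 to 4.37). Gys2, the glycogen synthase best known from liver, rose by 2.40, whereas Gys1, the form of other tissues, differed by 0.22 (adjusted p = 0.056), and by 0.35 without HF-DR 7, 8 and 9, where it passed. Gbe1, the branching enzyme, rose by 1.44. The phosphorylases split, since Pygl rose by 1.42 (0.27 by its dimmer probe) and Pygb fell by 1.01 on both its probes.

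Pyruvate oxidation, the citric acid cycle and the respiratory chain were mostly higher. In the list of pyruvate oxidation and the cycle, 26 of 30 genes rose and 2 fell (median 0.72). Mpc1, a subunit of the carrier that brings pyruvate into mitochondria, ran from -1.03 to -0.33 in t0 (median -0.74) and from 0.26 to 2.18 in HF-DR (median 1.87), a rise of 2.41 (SE 0.15). The Mpc1 probe is placed on chromosome 12 in mm8, whereas the gene lies on chromosome 17. The other probe of Mpc1 gave 2.27. Pdha1, of pyruvate dehydrogenase, rose by 1.81 (SE 0.10). Pdk1, a kinase that inhibits pyruvate dehydrogenase, rose as well, by 2.58 (SE 0.11, adjusted p = 9.8e-21), while its relative Pdk3 fell by 0.62. For the respiratory chain and ATP synthase, 41 of 43 measured genes rose and none fell, by a median of 0.70, and on the 6 slides the mean of the list was higher by 0.49 to 1.03. Ndufv2, of the NADH dehydrogenase, rose by 0.86 and Cycs, cytochrome c, by 1.35. Of 17 genes of mitochondrial biogenesis, 8 rose and 3 fell, with a median of 0.12. Ppargc1a (PGC-1alpha), a coactivator of mitochondrial genes, rose by 1.28 (SE 0.15) and the nuclear receptor Esrra by 1.07 (0.57 by its dimmer probe).

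Fatty acid oxidation was split at its gate. Of 24 genes, 15 rose and 4 fell (median 0.30). Cpt1a, the liver form of the transferase that admits fatty acids to mitochondria, ran from 0.04 to 0.41 in t0 (median 0.21) and from -0.79 to -0.35 in HF-DR (median -0.69), and it fell by 0.87 (SE 0.05, adjusted p = 1.7e-17). Cpt1b, the muscle form, rose by 1.21 (SE 0.12), with 0.51 for its dimmer probe. The dimmer probe of Cpt1a gave -0.44.

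The genes of brown and beige fat had 7 of 11 measured members higher and 3 lower. Cidea, a lipid droplet protein, ran from -2.60 to -1.21 in t0 (median -1.92) and from 0.60 to 2.73 in HF-DR (median 1.90), a rise of 3.81 (SE 0.18, adjusted p = 2.4e-19). Cox8b, a cytochrome oxidase subunit of muscle and brown fat, rose by 2.60 (SE 0.18), Dio2, the deiodinase that activates thyroid hormone, by 1.68 and Kcnk3, a potassium channel, by 1.62 (SE 0.09). Ebf2 and Adrb3, a regulator and the beta-3 adrenergic receptor, fell by 1.03 and 0.84. Ucp1, the uncoupling protein that defines brown fat, was above background on 3 t0 and 6 HF-DR arrays and was not tested, so the list does not include its defining gene.

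**Figure D3:**
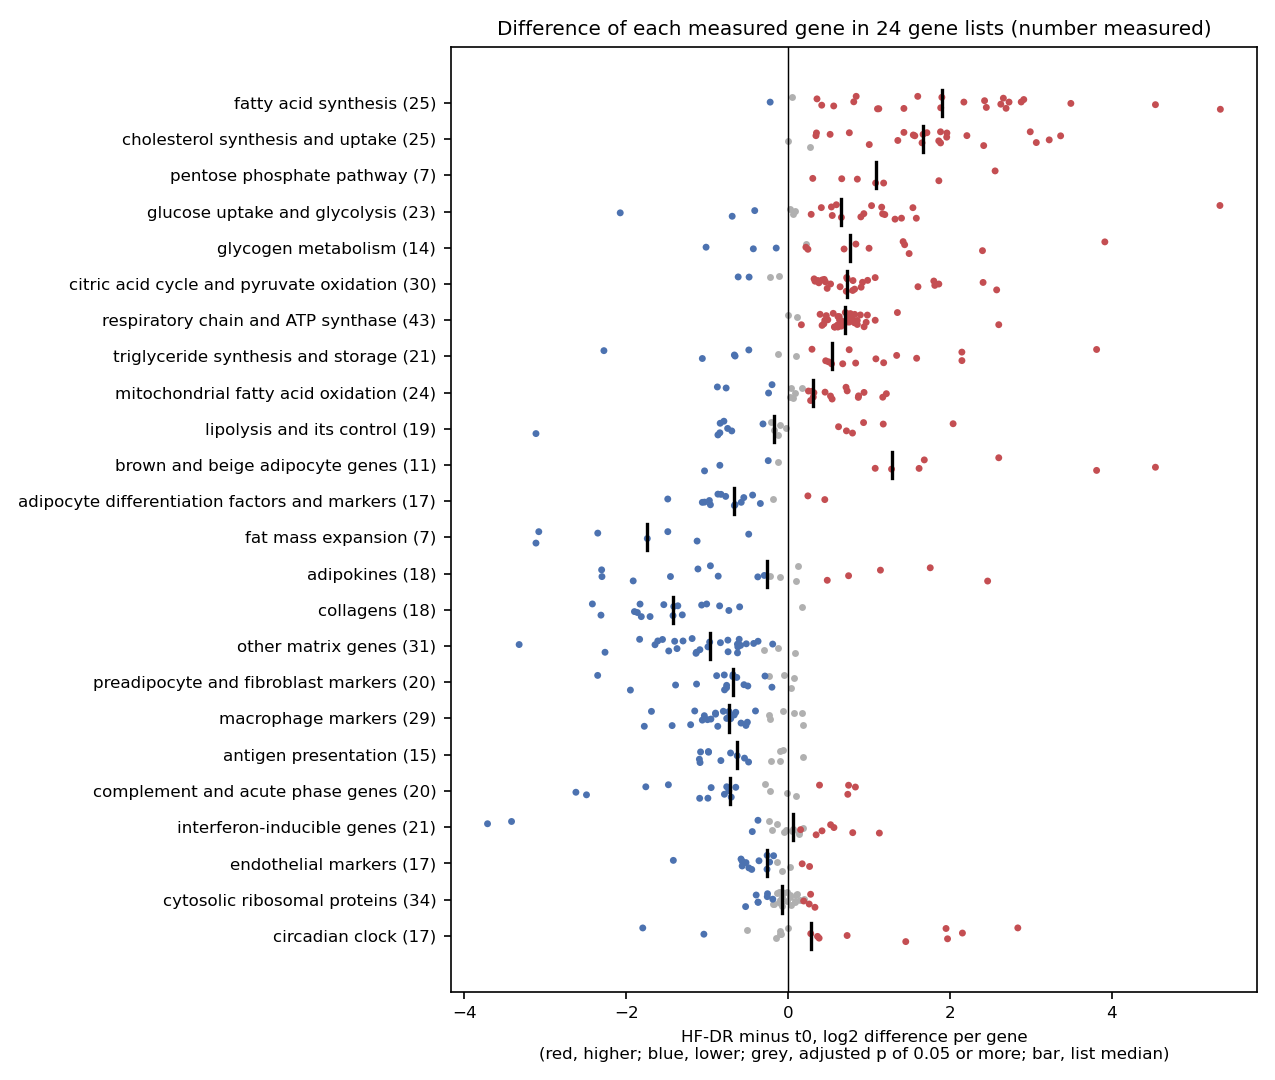
Difference of HF-DR minus t0 on the log2 scale (horizontal axis) for each measured gene (point) of 24 lists, with the number measured in brackets; red genes rose, blue fell, grey had an adjusted p of 0.05 or more, and the black bar is the list median. The medians run from -1.74 for fat mass expansion and -1.42 for collagens to 1.67 for cholesterol and 1.90 for fatty acid synthesis.

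Triglyceride assembly was higher and the coat of the lipid droplet mixed. In this list 14 of 21 measured genes rose and 5 fell. Agpat2, an acyltransferase whose loss causes lipodystrophy in humans, ran from -1.16 to -0.17 in t0 (median -0.87) and from 0.41 to 1.83 in HF-DR (median 1.48), a rise of 2.15 (SE 0.13). Gpam, which starts the assembly, rose by 2.15, Gpd1, which supplies glycerol phosphate, by 1.59 and Dgat1 and Dgat2, which finish it, by 1.09 and 0.84. Plin4 and Plin1, coat proteins of the droplet, fell by 2.27 (SE 0.14) and 1.06 (SE 0.11). Plin1 ran from -0.01 to 0.33 in t0 (median 0.14) and from -1.87 to -0.54 in HF-DR (median -0.80). Plin2, the coat protein found in most cells, rose by 1.34.

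Lipolysis did not move as a group, with 6 of 19 genes higher and 8 lower (median -0.18, or -0.058 without HF-DR 7, 8 and 9). The largest difference was that of Npr3, the receptor that clears natriuretic peptides, a lipolytic signal. It ran from -0.84 to 0.74 in t0 (median 0.37) and from -4.07 to -1.19 in HF-DR (median -2.98), and it fell by 3.11 (SE 0.23, adjusted p = 2.6e-14), and on the 6 slides the pairs differed by -4.42 to -0.35. Lipe, hormone-sensitive lipase, fell by 0.87 (SE 0.13). Pnpla2, the adipose triglyceride lipase, differed by -0.02 (adjusted p = 0.89, 95% interval from -0.30 to 0.25). Abhd5, its activator, rose by 1.18 (0.38 by the dimmer probe) and G0s2, its inhibitor, by 0.93. Ptger3, a prostaglandin receptor that restrains lipolysis, rose by 2.04 (SE 0.16), with values as small as 1.11 for its dimmer probes.

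The angiopoietin-like inhibitors of lipoprotein lipase moved in opposite directions. Angptl8, which inhibits the enzyme in concert with a relative from liver and is induced by feeding, ran from -2.10 to -1.57 in t0 (median -1.84) and from 1.23 to 2.05 in HF-DR (median 1.90). It rose by 3.62 (SE 0.10, adjusted p = 2.5e-26), 12.3-fold, on both probes. Angptl4, which inhibits the enzyme in fasted fat, ran from 0.24 to 1.09 in t0 (median 0.90) and from -2.83 to -1.78 in HF-DR (median -2.13), and it fell by 2.98 (SE 0.14, adjusted p = 5.8e-20). In HF-AL mice Angptl4 lay between -0.32 and 0.88. Lpl itself fell by 0.55 (adjusted p = 0.054 with the slide as a block), Cd36, a fatty acid transporter, by 0.77 and Vldlr by 0.89, while Acsl3 and Acsl1, which activate fatty acids, rose by 2.32 and 1.01. Fabp4, the main fatty acid binding protein of adipocytes, differed by -0.19 (adjusted p = 0.27), and Fabp5 rose by 1.69.

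Genes that follow the growth of fat mass in mice were lower. The 7 of 8 listed genes that passed the signal filter fell, by a median of 1.74 (33% of all genes fell). This list, like the others, was written with earlier results of these data known, and Npr3 of the lipolysis list is also among its members. Plagl1, an imprinted transcription factor, ran from 0.12 to 0.88 in t0 (median 0.44) and from -3.67 to -2.05 in HF-DR (median -2.52), and it fell by 3.08 (SE 0.14, adjusted p = 5.0e-20), with -1.56 for its dimmer probe. Mest, an imprinted gene of the same kind, fell by 2.35 and Peg3 by 1.74 (SE 0.12), with -1.01 for the dimmer Peg3 probe. In HF-AL mice, which were as old as HF-DR mice, Plagl1 lay at -0.25 to 0.31 and Peg3 at -0.43 to 0.67. Relative to t0, HF-AL differed by -0.42 for Plagl1 and by -0.40 for Peg3 (adjusted p = 0.15 and 0.10). The median of the 7 genes for HF-AL minus t0 was -0.38. Of the 7 genes, Fam13a had also fallen between t0 and HF-AL, by 0.80 (adjusted p = 0.021).

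Adipokines, the hormones of fat, showed no common direction, with 5 of 18 higher and 9 lower. Leptin (Lep), which follows fat stores, ran from -1.32 to 0.85 in t0 (median 0.16) and from -2.03 to -0.05 in HF-DR (median -0.80). The groups overlapped, and Lep fell by 0.86 (SE 0.23, adjusted p = 0.0012). This was not seen on every slide, since HF-DR was the higher array on 4 of the 6 slides with both groups. With the slide as a block, a fit that rests on HF-DR 1 to 6, the difference was -0.29 (adjusted p = 0.47). Adiponectin (Adipoq) ran from 0.33 to 0.99 in t0 (median 0.64) and from -1.22 to 0.37 in HF-DR (median -0.24), and it fell by 0.96 (SE 0.13), or of 0.77 without HF-DR 7, 8 and 9. Rarres2 (chemerin) and Nnat (neuronatin) each fell by 2.30, with SE 0.09 and 0.08, and their groups stood apart. Apln (apelin) rose by 2.47 (SE 0.14), though only by 0.41 on its least responsive probe, Nrg4 rose by 1.76 and Nampt by 1.14.

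Of 17 factors and markers of adipocyte differentiation, 14 fell and 2 rose (median -0.66). Cebpd fell by 1.49 (SE 0.15) and Cebpa by 0.97, and Cebpb rose by 0.45. Pparg, the main regulator of the adipocyte, fell by 0.34 (SE 0.12, adjusted p = 0.016). It was not called without HF-DR 7, 8 and 9 (-0.17, adjusted p = 0.15) or with the slide as a block (adjusted p = 0.46). The block fit leaves out these mice too, so it is no separate check. The lowest HF-DR array of this list's mean stood at -1.21, while the HF-DR median was -0.30 and the t0 arrays lay between 0.05 and 0.35. Without HF-DR 7, 8 and 9, 13 of the 17 genes fell, and the 9 list means lay between -0.37 and -0.24.

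Insulin signalling had 9 of 23 genes lower and 4 higher, and its median of -0.10 was close to that of all genes. Grb14, an inhibitor that binds the insulin receptor, fell by 2.06 (SE 0.16, adjusted p = 8.8e-14). Irs1, a substrate of the receptor, fell by 0.90 (SE 0.10), with 0.00 for its other probe. Akt2 and Tbc1d4, which pass the signal to the glucose transporter, rose by 0.41 and 0.33.

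Collagens were lower almost throughout. Of 18 measured collagen genes 17 fell, none rose, and 14 had no overlap between t0 and HF-DR (9.12% of all genes were lower without overlap). The median difference was -1.42, and the list mean fell on each of the 6 slides, by values from -1.71 to -0.99. Col1a1 ran from -0.22 to 1.03 in t0 (median 0.37) and from -2.29 to -1.30 in HF-DR (median -1.97), and it fell by 2.31 (SE 0.11, adjusted p = 5.6e-20). Col3a1 fell by 2.42 (SE 0.11) and Col5a2 by 1.90 (SE 0.08). The dimmer probes of Col1a1 and Col3a1 gave values as small as -0.34 and -0.02, and with the mean of all probes the list's median was -1.07. Col12a1 differed by 0.17 (adjusted p = 0.094). The basement membrane chains Col4a1 and Col4a2 fell by 1.00 and 0.73. Col5a2 and Col5a3 were also lower in HF-AL than in t0, by 0.34 and 0.41.

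Other genes of the matrix and its cells followed. Of 31 matrix genes 28 fell and none rose (median -0.97). Thbs1, the matrix protein thrombospondin, ran from -1.01 to 1.18 in t0 (median 0.46) and from -3.64 to -2.37 in HF-DR (median -2.86), and it fell by 3.32 (SE 0.26, adjusted p = 1.6e-13), with values as small as -1.33 for its dimmer probes. Fbn1, fibrillin, whose fragment is the hormone asprosin, fell by 2.26 (SE 0.17), and Loxl2, which crosslinks collagen, by 1.61. The dimmer probe of Loxl2 gave -0.60. Among markers of preadipocytes and fibroblasts, 16 of 20 fell and none rose, with Gsn at -2.35, Vim at -1.95 and S100a4 at -1.39. In the list of Wnt, BMP and TGF-beta genes, 14 of 22 fell and 2 rose. Inhbb, an activin subunit, fell by 1.46 (SE 0.13), with -0.08 for its other probe, and Fst, which binds activin, rose by 0.55.

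Macrophage markers were lower as well. Of 29 genes 23 fell and none rose (median -0.73), and the list mean of each slide's HF-DR array lay below its t0 array, by -1.14 to -0.40. Lyz2, lysozyme, ran from 0.02 to 1.37 in t0 (median 0.67) and from -1.81 to -0.49 in HF-DR (median -0.91), and it fell by 1.69 (SE 0.13) with no overlap, with -0.84 for its dimmer probe. Adgre1 (F4/80) ran from -0.27 to 0.88 in t0 (median 0.24) and from -1.51 to -0.14 in HF-DR (median -0.60), so the groups overlapped, and fell by 0.95 (SE 0.13). Of the 5 defining macrophage markers all fell. Of 15 antigen presentation genes, 10 fell and none rose, among them Cd74, the invariant chain, by 0.98 (SE 0.10) and Ciita, the regulator of these genes, by 1.09. Ccl9, Ccl6 and Ccl24, chemokines made by macrophages, fell by 1.53, 1.40 and 1.35, and Ccl8 rose by 1.44, with pairs on the slides from -1.31 to 2.92. For chemokines and cytokines together 11 of 20 fell and 3 rose.

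Complement and interferon genes gave single large falls. In complement and acute phase genes, 12 of 20 fell and 4 rose. C4b ran from -0.27 to 1.02 in t0 (median 0.10) and from -3.32 to -1.97 in HF-DR (median -2.33), and it fell by 2.62 (SE 0.14, adjusted p = 2.9e-18). C2 and C1s1 fell by 1.76 and 1.48. Ifi27 and Ifi27l2a, neighbours in the genome that interferon induces, had the largest falls of all named genes. Ifi27 ran from 0.33 to 1.37 in t0 (median 0.60) and from -3.63 to -2.30 in HF-DR (median -3.08), and it fell by 3.71 (SE 0.14, adjusted p = 7.5e-22), 13.1-fold, and Ifi27l2a fell by 3.41 (SE 0.16). The Ifi27 probe lies at chr12:103856768-103856827 (mm8), and a second, dimmer probe of the gene gave 0.14. Of the other 19 measured interferon-inducible genes, 7 rose and 2 fell. With the slide as a block, 4 genes of the whole list rose and 4 fell. Rsad2 rose by 1.13 (SE 0.15) and Ifit1 by 0.80.

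Markers of other cells differed by type. T and NK cell markers had 1 gene of 12 higher and 1 lower, Cd8b1 by 0.18 and Cd2 by -0.27. Neither was called with the slide as a block (adjusted p = 0.15 and 0.24). The Cd8b1 probe is placed on chromosome 5 in mm8, whereas the gene lies on chromosome 6. For B and plasma cells, 4 of 7 rose, with Ms4a1 (CD20) by 1.06 and Cd79b by 0.50, and the heavy chain gene Ighm fell by 2.45 (SE 0.17), although another of its probes gave 0.12. Mast cell proteases also moved in HF-AL. Mcpt4 ran from -0.55 to 0.07 in t0 (median -0.23) and from -1.41 to -0.61 in HF-DR (median -0.95), and it fell by 0.70 (SE 0.08), whereas in HF-AL it stood at -0.01 to 0.46 (difference from t0 0.53, adjusted p = 0.00012). Cma1 and Cpa3 fell by 0.77 and 0.64 in HF-DR and were higher by 0.58 and 0.48 in HF-AL than in t0. Kit, the receptor of mast cells, rose by 0.64. S100a9 and S100a8, proteins of neutrophils, rose by 1.83 (SE 0.18) and 0.80. The other 3 of the 5 measured neutrophil markers were not called, and the median of the list was 0.047.

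Vessel, mesothelial and blood genes also moved. Of 17 endothelial markers 12 fell and 2 rose (median -0.26). Without HF-DR 7, 8 and 9, 9 fell and 3 rose (median -0.16), and with the slide as a block 7 fell and 2 rose (median -0.16). Cldn5, of endothelial tight junctions, fell by 1.42 (SE 0.14). Of 13 mesothelial markers 8 fell, with Msln, mesothelin, by 1.51. Genes of red blood cells were higher, with 4 of 5 risen. Hbb-bt, a beta globin, ran from -2.21 to -0.86 in t0 (median -1.21) and from -1.13 to 1.54 in HF-DR (median -0.02), with HF-AL mice at -1.67 to 0.40. The mean of these genes differed by 0.14 to 2.34 on the 6 slides, and the amount of blood left in the tissue was not measured.

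**Figure D4:**
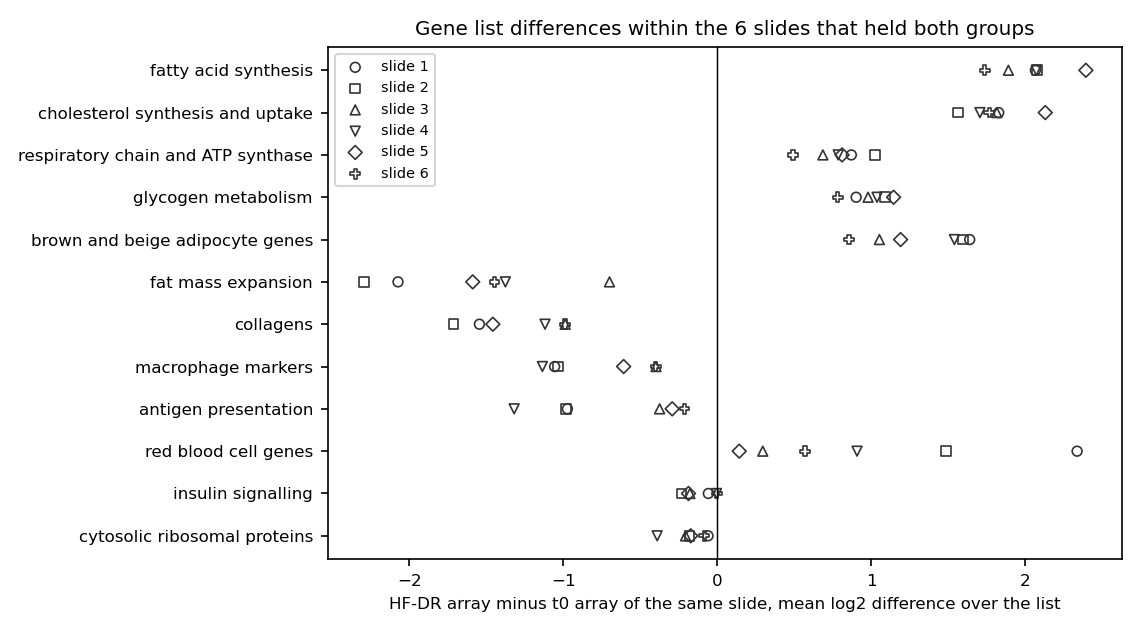
Mean log2 difference of a gene list (horizontal axis) between the HF-DR array and the t0 array of the same slide, for the 6 slides that held both (symbols) and 12 lists. Fatty acid synthesis lies between 1.74 and 2.39 and collagens between -1.71 and -0.99, while red blood cell genes range from 0.14 to 2.34.

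Clock genes differed in a mixed way, and the labels do not give the hour of killing of either group. Of 17 genes 9 rose and 2 fell. Cry1, a repressor of the loop, ran from -0.43 to 0.01 in t0 (median -0.19) and from 0.87 to 1.52 in HF-DR (median 1.28), a fitted rise of 1.45 (SE 0.06). It was above background on 7 t0 and all 12 HF-DR arrays, so it passed the signal filter through the group where it was higher. Nr1d1 (REV-ERBalpha), a nuclear receptor that represses the loop, ran from -0.66 to 0.47 in t0 (median 0.01) and from -2.25 to -1.55 in HF-DR (median -1.81), and it fell by 1.79 (SE 0.11). The smallest difference among the 3 probes of Nr1d1 was -0.05. Nfil3 and Hlf, output factors that oppose each other, rose by 2.15 and 1.95. Per1, Per3, Clock and Rora differed by -0.10, -0.15, -0.10 and -0.09 and did not pass, and Per2 rose by 0.73, with 0.17 for its dimmer probe.

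Stress and nutrient genes held further single changes. Txnip, which restrains glucose uptake and is induced by glucose, ran from -0.11 to 0.79 in t0 (median 0.25) and from -2.01 to -1.37 in HF-DR (median -1.61), and it fell by 1.95 (SE 0.10, adjusted p = 2.2e-18). In HF-AL it was also lower than in t0, by 0.52 (adjusted p = 0.0070). The sestrins Sesn2 and Sesn1 fell by 1.55 and 0.74, the desuccinylase Sirt5 rose by 0.86, and of 23 nutrient sensing genes 13 fell and 6 rose. Mt2, a metallothionein that glucocorticoids induce, fell by 2.23 (SE 0.16), and Hsd11b1, which makes active glucocorticoid in the tissue, rose by 1.61 (SE 0.13). Gclm, of glutathione synthesis, rose by 1.04 (SE 0.06) and Gpx1, glutathione peroxidase, fell by 1.19 (SE 0.08). In the whole antioxidant list 17 of 38 rose and 9 fell, and 22 rose without HF-DR 7, 8 and 9.

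Some lists depended on HF-DR 7, 8 and 9. For genes of protein folding in the endoplasmic reticulum, 9 of 24 rose and 1 fell, whereas without these mice 8 rose and 10 fell (29.9% of all genes rose and 34.7% fell). For cytosolic ribosomal proteins, 4 of 34 rose and 7 fell with all arrays, and 3 rose and 19 fell without the 3 mice. With the slide as a block, 7 folding genes rose and 8 fell, and 1 ribosomal protein gene rose and 13 fell. Of 8 measured genes of the seminal vesicle and epididymis 6 rose with all arrays and 1 without. Des, desmin of muscle cells, was called with all arrays (0.55, adjusted p = 0.037) and not without these mice (0.05, adjusted p = 0.55). Rab15 and Nucb2, which the 3 arrays raised, differed by -0.05 and 0.52 with all arrays and by -1.17 and -0.62 without them, where they were called. Both genes were picked with their values in view.

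Several leading genes belonged to none of these lists. Pgbd5, derived from a transposase, rose by 3.91 (SE 0.17) and Aspg, an asparaginase, by 3.36 (SE 0.15). Aspg gave 0.53 by its dimmer probe. Slc9a2, a sodium-proton exchanger, rose by 3.56 (SE 0.33) with all arrays and by 2.95 without HF-DR 7, 8 and 9, and its HF-DR mice spread from 0.26 to 4.58. Among the falls, Wfdc21, a secreted protein with a WAP domain, fell by 3.15 (SE 0.20), Sncg, gamma-synuclein, by 2.92 (SE 0.13), Emp1, an epithelial membrane protein, by 2.71 (SE 0.15), Slc9b2, another exchanger, by 2.70 (SE 0.11) and Mycl, a relative of Myc, by 2.65 (SE 0.22). Between HF-AL and t0, the adjusted p of these 8 genes was 0.10 or more. In that comparison Wfdc21 differed by -0.71 (SE 0.21), Mycl by -0.51 and the others by -0.14 to 0.30. Spry3, an inhibitor of growth factor signalling, was above background on 11 HF-DR arrays and no t0 array and was at least 2.40-fold higher in HF-DR. For such a gene the fold is a lower bound, set by the dimmest signals that lie above background. The secretin receptor gene Sctr was above background on 11 t0 arrays and no HF-DR array and was at least 1.37-fold lower. Spry3 and Sctr were picked for signal in 1 group and none in the other. Both passed the signal filter through the group where they were higher, so no p-value is given for them.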

How the data were processed

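Total RNA of each mouse, 500 ng, was labelled with both dyes, the Cy3 products of all mice were pooled in equal amounts as a common reference, and each mouse's Cy5 product was hybridised against that pool on an Agilent array, per the labels' protocols. Every array had the same dye orientation, so a probe's dye effect cancels between groups. The deposited scanner files hold spot intensity values, made with Feature Extraction 9.5.3.1 and with probes placed on mm8 per the file headers. Of the 45018 spots on an array, 43379 were not controls. The series matrix deposited by the authors holds log2 Cy5 levels, as found by setting it against the scanner files, and served as an alternative.

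Spots with a net signal under -50 were left out (84 over all arrays), background was corrected by normexp with an offset of 50, and ratios were normalized by loess within arrays (limma 3.58.1, R 4.3.3). Outlier flags were left out and saturated spots kept. The signal filter kept probes with Cy5 well above background in at least 9 of the 12 mice of 1 group, which 24706 probes did. The brightest passing probe stood for each of 16497 genes, and 5767 genes had several. Gene names came from the accession of the probe through RefSeq (GRCm38.p6) or otherwise from the files. One limma model with 3 group means was fitted to all 36 arrays (33 residual degrees of freedom) and p-values were Benjamini-Hochberg adjusted over all genes. Precision is limited by the 12 mice a group. The members, gene lists and tests were chosen with earlier results of these data known. Genes named by rule were the 12 largest rises and 12 largest falls called with and without HF-DR 7, 8 and 9, with a curated symbol and signal on at least 9 arrays of both groups. To these the rule adds the 3 members of a list that have the lowest adjusted p and 1 going the other way, 10 genes of adipose tissue named in any case (Lep, Adipoq, Pparg, Plin1, Lipe, Pnpla2, Ucp1, Col1a1, Adgre1 and Fasn), and up to 3 genes a direction with signal in 1 group and none in the other. Other list members given by value were chosen with their values in view. The method was tested on simulated data. Alternatives changed the background correction, normalization, signal filter, probe choice, arrays, weights and block. A few genes picked by this rule are left unreported.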

Additional observations from a re-analysis of the deposited data

How the results depend on the processing

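The count of changed genes lay within 1.5 times of 10191 in every setting run, and of the 155 named genes that all 16 settings could test, 146 kept their side of the threshold and direction throughout. With the slide as a fixed block, which rests on HF-DR 1 to 6, 4380 genes rose and 4944 fell. The replicate numbers of the labels were not taken as pairs of mice. Of 12 same-numbered pairs 0 correlated above 0.1, but arrays on the same slide did not either (-0.21 to 0.06). Such correlations therefore cannot show whether the numbers pair mice. With the replicate number as a block 10214 genes changed. Leaving out 1 array gave 9914 to 10452. Settings added after seeing the data were scaling between arrays, the slide as a random block (10245 genes) and the single arrays left out. No block of scan date was run, because all arrays have 1 scan date. Aquantile leaves within-array ratios as they were.

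Of 46 list medians, 21 moved by more than the spread between mice or reversed in at least 1 setting (38 values), and the cause was not tested. With median centring, the pentose phosphate median was 1.31 and nutrient sensing -0.28. With the slide block, glycolysis was 0.83, insulin signalling 0.033 and so reversed, antioxidant genes 0.34 and lysosomal genes -0.32. Without a signal filter, which brings in dim genes, glycogen was 0.47, brown and beige fat 0.27 and mast cells -0.012. With the mean of probes, adipokines were -0.052, collagens -1.07, preadipocytes -0.54, nutrient sensing -0.076 and Oxsm 0.025, the sign of Oxsm reversed. With Feature Extraction's processed signals, fat mass was -2.35, mast cells -0.60, nutrient sensing -0.22 and Wnt genes -0.57. With the stricter filter, fat mass was -2.35, neutrophils 1.83, testis 2.92, muscle -0.91 and the clock 0.0013. The neutrophil, testis and muscle values equal the most extreme single gene of each list and do not describe the list. Over the 5, 5 and 9 measured genes of these lists the medians of the main fit were 0.047, 0.061 and -0.18. With scaling between arrays, other matrix genes were -0.75, preadipocytes -0.55, testis 0.33, lysosomal genes -0.30 and Wnt genes -0.24. With the series matrix, mast cells were -0.45, neutrophils 1.01, antigen presentation -0.34, antioxidant genes 0.33, lysosomal genes -0.28, ribosomal proteins 0.17 and Wnt genes -0.43. Without HF-DR 7, 8 and 9, antioxidant genes were 0.33 and lysosomal genes -0.30. With all spots kept, nutrient sensing was -0.12, and with array weights lysosomal genes were -0.31.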
